A study of Mus musculus with 24 samples.

Results

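The Hox cluster genes are the 39 mouse genes named Hox with a cluster letter from a to d and a number, and all 39 had probes on the array, out of 23787 genes with a symbol. They were found by the RefSeq transcript that the scanner files give for each probe, and 46 of the 56605 probes belonged to them. One probe stood for each of 32 genes, and 7 genes (Hoxa3, Hoxa9, Hoxa10, Hoxb3, Hoxb8, Hoxb9 and Hoxd8) had 2 probes each. A gene with 2 probes is represented by the probe with the higher mean over all arrays.

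Hox genes encode homeodomain transcription factors that give cells along the body axis, the limbs and the urogenital tract their positional identity. In each cluster the genes lie in the order of their paralog groups, and genes of low group number act earlier and further toward the head than genes of high group number, which act in the trunk, the tail and the distal limb and genital tract. The proteins bind DNA with cofactors of the TALE class (Pbx, Meis and Pknox proteins), Polycomb and trithorax proteins keep the clusters off or on, and adult cells and cell lines often keep part of the Hox pattern of the place they came from. In the male reproductive tract, Hoxa10 and Hoxa11 are known for their part in the descent of the testis.

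RNA came from TM3, 1 established line of mouse Leydig cells (the cells of the testis that make testosterone), which grow attached but were treated in suspension. Sham-exposed cells (S) were handled in the same way without pulses, and nsPEF-exposed cells (E) received 80 pulses of a nanosecond pulsed electric field, each 60 ns long and of 5.5 kV (14 kV/cm). Both were harvested at 0, 4 and 24 h, which gave the groups S0, E0, S4, E4, S24 and E24 with 4 biological replicates each, and each of the 24 samples had its own one-colour array. The p-values therefore measure the spread between these samples of 1 line, and in RNA from whole cultures fewer expressing cells and less RNA per cell cannot be told apart.

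All 8 arrays of a time point lay on 1 slide, and the effects of time and of slide cannot be told apart. On each slide the sham samples took row 1 and the nsPEF samples row 2, so treatment and row cannot be told apart either. The 75th percentile of the signal intensity lay between 300.3 and 787.2 (arbitrary units) over the arrays. The share of probes well above background was 57.5% to 62.1% on sham arrays and 51.2% to 57.2% on nsPEF arrays, and the part of this difference in the treatment results was not tested. Levels are given as the log2 of the processed signal minus the log2 of the 75th percentile of the same array, called here the normalized log2 signal, so that 0 is the 75th percentile of that array. Levels of different probes are not comparable with each other, and transcripts of neighbouring Hox genes can overlap, so a probe stands for the transcript it is assigned to. Of the Leydig markers, Star (cholesterol import into mitochondria), Cyp17a1 (androgen synthesis) and Nr5a1 (the steroidogenic transcription factor) were well above background on all 24 arrays. By contrast, Cyp11a1, Hsd3b1, Hsd3b6, Hsd17b3 and Lhcgr were well above background on 0 arrays. Thus 3 of 8 Leydig markers on the array were called on all 24 arrays, as were 3 of 6 Sertoli markers. These calls alone do not bear out the labelled cell type.

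The promoters of 5 Hox genes are shown because these genes had clear time courses, which are given further on, and because 3 of them are paralogs that moved in different directions. Hoxb4, Hoxc4 and Hoxd4 belong to paralog group 4, whose members pattern the neck and the border of hindbrain and spinal cord, and in sham cells Hoxb4 and Hoxd4 rose from 0 to 4 h while Hoxc4 fell. Hoxb8 and Hoxd9 fell and rose again like Hoxc4. Each sequence is the 250 bases before the annotated start, from RefSeq (GRCm38.p6), all on the plus strand, at chr11:96318017-96318266 for Hoxb4, chr15:103034145-103034394 for Hoxc4, chr2:74721728-74721977 for Hoxd4, chr11:96281655-96281904 for Hoxb8 and chr2:74697513-74697762 for Hoxd9. Capitals mark AGGTCA on either strand (seen here as TGACCT), which is the core of the sites of nuclear receptors such as the retinoic acid receptors, and CCAAT on either strand. No marked stretch overlapped another.
Hoxb4: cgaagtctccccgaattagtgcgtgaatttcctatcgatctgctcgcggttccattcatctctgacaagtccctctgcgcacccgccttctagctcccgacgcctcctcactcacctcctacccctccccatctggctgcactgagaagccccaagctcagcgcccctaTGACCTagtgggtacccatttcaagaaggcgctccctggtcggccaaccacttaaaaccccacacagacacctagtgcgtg
Hoxc4: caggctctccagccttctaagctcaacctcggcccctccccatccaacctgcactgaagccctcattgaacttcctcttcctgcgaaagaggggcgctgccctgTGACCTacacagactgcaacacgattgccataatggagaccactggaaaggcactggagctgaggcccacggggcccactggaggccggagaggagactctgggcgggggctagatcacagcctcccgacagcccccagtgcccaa
Hoxd4: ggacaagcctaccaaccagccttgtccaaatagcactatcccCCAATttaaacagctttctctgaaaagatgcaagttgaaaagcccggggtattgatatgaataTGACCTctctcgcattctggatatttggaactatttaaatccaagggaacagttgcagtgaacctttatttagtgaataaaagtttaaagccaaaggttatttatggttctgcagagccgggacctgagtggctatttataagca
Hoxb8: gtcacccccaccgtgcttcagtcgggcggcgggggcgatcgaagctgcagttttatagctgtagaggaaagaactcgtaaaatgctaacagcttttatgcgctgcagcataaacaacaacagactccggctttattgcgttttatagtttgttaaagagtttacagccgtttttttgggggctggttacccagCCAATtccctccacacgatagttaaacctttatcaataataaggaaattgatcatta
Hoxd9: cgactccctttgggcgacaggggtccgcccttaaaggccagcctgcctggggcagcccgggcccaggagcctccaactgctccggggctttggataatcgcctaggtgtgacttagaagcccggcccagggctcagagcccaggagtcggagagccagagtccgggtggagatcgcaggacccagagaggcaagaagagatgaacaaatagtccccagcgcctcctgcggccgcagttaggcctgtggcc

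A promoter was found for 22 of the 39 Hox genes (24 promoters). AGGTCA was present in 6 of these 24 and in 14% of all 32851 mouse promoters of the same length, and the 3 promoters of paralog group 4 all held it, at 81 bases before the start in Hoxb4, 146 in Hoxc4 and 145 in Hoxd4. CCAAT was present in 14 of the 24 Hox promoters and in 33.8% of all promoters, TATAAA in 4 and in 12.4%. The Hoxd9 promoter held none of the 3 motifs. The same AGGTCA letters thus lay before genes that moved in opposite directions, and the match is a description of letters, not of a bound site. The Hox promoters held 2 to 35 CpG dinucleotides with a median of 12.5, against a median of 6 over all promoters.

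Which Hox genes were detected was set out by cluster and position. A gene was counted as detected when, in any of the 6 groups, 2 or more of the 4 arrays had a probe of it well above background (the scanner software's own call). By that measure 30 of the 39 genes were detected, and 27 of them were well above background on all 24 arrays. In the A cluster (chromosome 6) 10 of 11 genes were detected, and in the B cluster (chromosome 11) 9 of 10. In the C cluster (chromosome 15) 7 of 9 were detected, without Hoxc11 and Hoxc12. The D cluster (chromosome 2) was the sparsest, with 4 of 9 genes detected, namely Hoxd3, Hoxd4, Hoxd8 and Hoxd9.

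The detected genes lay mainly in the low and middle paralog groups. Of the 12 genes of groups 10 to 13, 5 were detected, namely Hoxa10, Hoxa11, Hoxb13, Hoxc10 and Hoxc13. Every member of groups 2 to 9 was detected, 24 genes in all. Within group 13 the genital and digit genes Hoxa13 and Hoxd13 were well above background on 1 and 0 arrays, whereas Hoxc13, a regulator of hair keratins, was so on all 24. The 4 genes at the high-number end of the D cluster, Hoxd10 to Hoxd13, were well above background on 1, 0, 0 and 0 arrays.

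Hoxc12 was well above background on 2 arrays, 1 of S4 and 1 of S24, and Hoxc11 on 1 array of S24, so they fell short of the detection rule. Hoxa4 was well above background on 18 arrays, Hoxd3 on 17 and Hoxb13 on 13. All the missing calls of Hoxa4 and Hoxb13 and all but 1 of those of Hoxd3 came from 4 h or 24 h arrays. The signal of undetected probes still differed between the arrays of sham and nsPEF: Hoxb1, with no array above background, lay between -7.75 and -7.45 in S0 and between -7.40 and -6.72 in E0, between -8.06 and -7.54 in S4 and between -6.95 and -6.47 in E4. These values carry no level of the gene, and their ranges did not overlap.

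**Figure D1:**
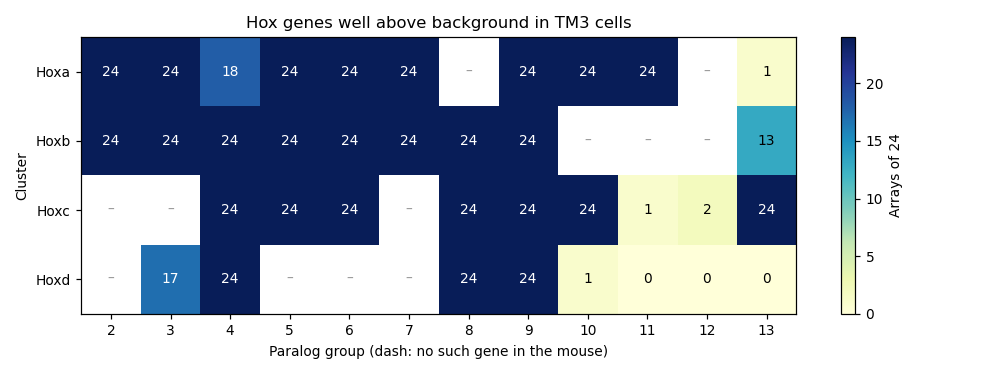
Number of the 24 arrays on which each Hox gene was well above background, by cluster (rows) and paralog group from 2 to 13 (columns), with the darkest cells standing for 24 arrays and dashes for group numbers that the cluster lacks in the mouse. Groups 2 to 9 are dark in every cluster that has the gene, apart from Hoxa4 (18) and Hoxd3 (17), and Hoxd10 to Hoxd13 are at 1 or 0.

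The comparison of 4 h with 0 h in sham cells asks how the Hox genes moved in cells that received no pulses. Time, slide and handling act together in it. Most detected Hox genes were lower at 4 h: 17 of 30 fell and 4 rose, while 30.3% of all 37684 tested probes fell and 29% rose (limma, Benjamini-Hochberg adjusted over all tested probes). The median difference of the 30 genes was -0.38 on the log2 scale, against -0.01 over all tested probes. The 4 that rose were Hoxb4, Hoxa3, Hoxd4 and Hoxa11. By cluster, 6 of 7 Hoxc genes fell and 0 rose (median -0.73), 5 of 10 Hoxa genes fell and 2 rose (-0.32), 5 of 9 Hoxb genes fell and 1 rose (-0.38), and 1 of 4 Hoxd genes fell and 1 rose (-0.06).

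Hoxc4, a trunk gene also known from lymphocytes, had the largest fall among the genes well above background on every array. Its normalized log2 signal was 0.41, 0.52, 0.34 and 0.52 on the S0 arrays and -1.28, -1.49, -1.49 and -1.34 on the S4 arrays. All 4 values at 4 h lay far below the lowest at 0 h, a difference of -1.85 ± 0.0737 (SE, n = 4 per group), or 3.60-fold, with adjusted p = 1.88e-14 by limma. Hoxc13, at the other end of the cluster, fell from values of 0.02, -0.06, -0.14 and -0.15 to -1.27, -0.98, -1.11 and -1.01, and Hoxc9, a thoracic gene, fell by 1.03 from a range of 2.99 to 3.16 to a range of 1.91 to 2.24. The groups did not overlap in any of these 3 genes.

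Hoxb8, best known from myeloid progenitors, read -0.71, -0.50, -0.58 and -0.66 in S0 and -1.90, -2.03, -1.55 and -1.71 in S4. That is a fall by 1.18 ± 0.093 (SE), 2.27-fold, with adjusted p = 7.11e-10, and its second probe fell by 1.34. Hoxd9, a gene of the lumbar trunk and limb, read -0.26, -0.20, 0.02 and -0.01 in S0 and -1.39, -1.49, -1.37 and -1.75 in S4. It fell by 1.39 and was the only one of the 4 detected Hoxd genes to fall. Hoxa5, a gene of lung and neck vertebrae, read -1.24, -1.03, -1.11 and -1.08 in S0 and -2.01, -2.08, -2.0 and -2.13 in S4. Hoxa7, a thoracic gene, read 3.05, 3.24, 2.89 and 2.98 in S0 and 2.28, 2.28, 2.32 and 2.39 in S4. The 4 h arrays of both genes were below all 0 h arrays, with differences of -0.94 for Hoxa5 and -0.72 for Hoxa7.

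The group 4 genes did not move together. Hoxb4, known for expanding blood stem cells when overexpressed, read 0.49, 0.63, 0.35 and 0.52 in S0 and 1.45, 1.5, 1.44 and 1.42 in S4. Its rise by 0.96 ± 0.0545 (SE), 1.94-fold, with adjusted p = 4.85e-12, was the largest upward difference among the 30 genes at 4 h. Hoxd4, a retinoic acid target of the hindbrain border, rose from -0.60, -0.72, -0.69 and -0.60 to -0.37, -0.11, -0.20 and 0.11, by 0.51 ± 0.0846 (SE, adjusted p = 2.65e-05). The S0 and S4 arrays did not overlap in Hoxb4 or Hoxd4. Hoxa4, also expressed in male germ cells, was dim and variable. It read -3.80, -3.87, -3.94 and -0.03 in S0 and -4.85, -5.94, -5.46 and -4.62 in S4, where 2 of the 4 arrays were well above background. The fitted difference was -2.31 ± 0.608 (SE, adjusted p = 0.00269), and it rested in part on S0 replicate 4, without which it was -1.35.

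Hoxb13, the prostate and tail gene of group 13, passed into the background at 4 h. It read -3.96, -4.01, -4.38 and -3.85 in S0, all well above background, and -6.05, -6.08, -6.14 and -5.90 in S4, where 0 of 4 arrays were well above background. It was therefore at least 2.78-fold higher at 0 h than at 4 h in sham cells (adjusted p = 1.89e-06), a bound set with each S4 array at no less than its lowest signal well above background. Among the remaining detected genes, Hoxa2, Hoxb3, Hoxb5, Hoxb9, Hoxc5, Hoxc6 and Hoxc10 fell by 0.36 to 0.73, and Hoxa6, Hoxa9, Hoxa10, Hoxb2, Hoxb6, Hoxb7, Hoxc8, Hoxd3 and Hoxd8 did not pass the test, with differences between -0.38 and 0.12.

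**Figure D2:**
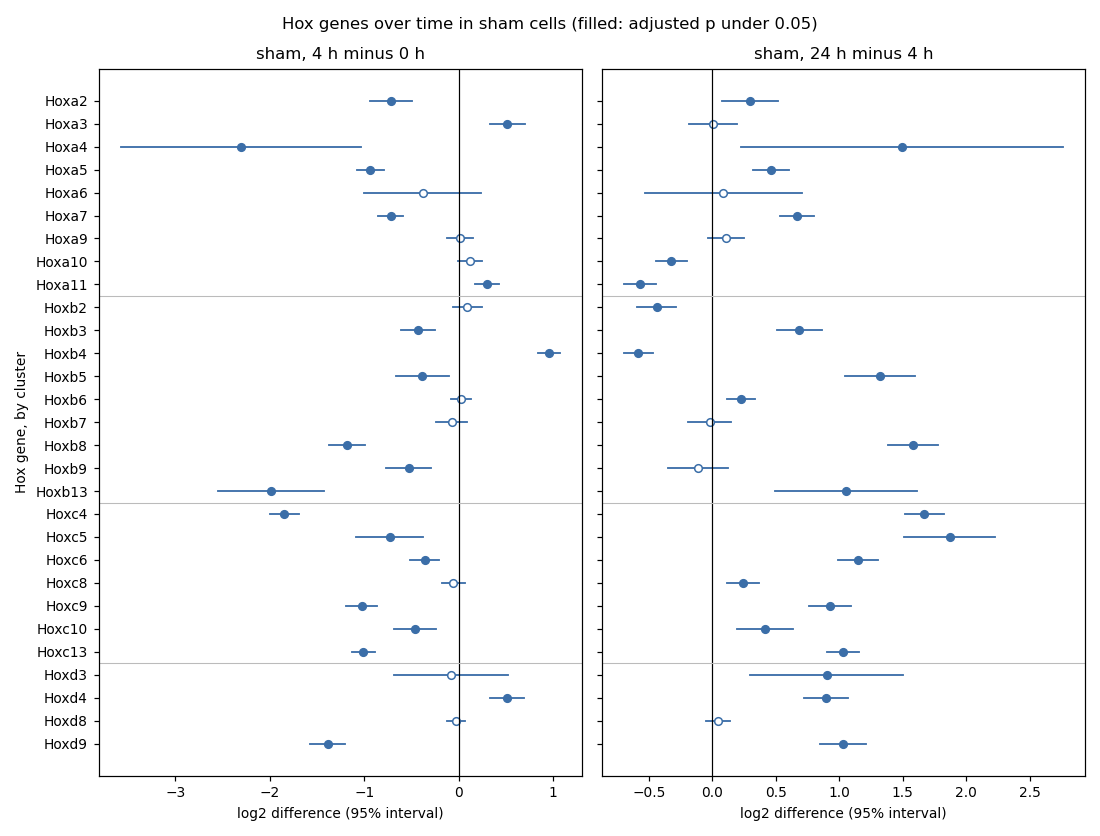
Difference in normalized log2 signal between sham groups for detected Hox genes of paralog groups 2 to 13, 4 h minus 0 h on the left and 24 h minus 4 h on the right, with 95% intervals from the fit to all arrays. Filled points passed the adjusted threshold of 0.05, grey lines part the clusters, and the 7 Hoxc genes lie left of 0 in the first panel and right of 0 in the second.

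Between 4 and 24 h in sham cells the direction turned for most of these genes. Of the 30 genes 19 rose and 5 fell, against 29% of all tested probes that rose and 28.6% that fell, and the median was 0.44 against 0.04 over all tested probes. All 7 Hoxc genes rose (median 1.03), as did 3 of 4 Hoxd genes, 5 of 9 Hoxb genes and 4 of 10 Hoxa genes. Hoxb4 (-0.58), Hoxa11 (-0.57), Hoxb2 (-0.44) and Hoxa10 (-0.32) were among those that fell. The direction depended on the scaling: with arrays scaled on the spike-in RNA the median of all tested probes moved to 0.67, and 27 Hox genes were then called higher and 0 lower, while 8 of 30 lay below that median as they did below the median of all probes before.

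Hoxc5, a gene of the cervical and upper thoracic trunk, had the largest rise. It read -4.82, -4.92, -4.26 and -4.78 in S4 and -2.88, -2.87, -2.80 and -2.74 in S24, a difference of 1.87 ± 0.171 (SE), 3.66-fold, with adjusted p = 9.43e-09. Hoxc4 came back to 0.36, 0.21, 0.22 and 0.29, a rise by 1.67 (3.19-fold, adjusted p = 1.51e-13), and Hoxb8 rose to -0.19, -0.24, -0.28 and -0.15, by 1.58 (2.99-fold, adjusted p = 1.15e-11). The 4 h and 24 h arrays did not overlap in any of the 3. Hoxd9 rose to -0.58, -0.57, -0.34 and -0.40, and Hoxc13 to -0.14, -0.07, -0.08 and 0.02, both by 1.03. Hoxb4 came down to 0.84, 0.86, 0.96 and 0.82, between its 0 h and 4 h values. Hoxb13 was well above background again on all 4 S24 arrays, at -4.80, -5.20, -4.84 and -5.14, at least 1.45-fold higher than at 4 h (adjusted p = 0.00221), and Hoxa4 read -3.53, -3.87, -3.93 and -3.57.

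Taken gene by gene, 15 of the 30 genes fell by 4 h and rose by 24 h in sham cells, a path that 21.7% of all tested probes followed (8177). They were Hoxa2, Hoxa4, Hoxa5, Hoxa7, Hoxb3, Hoxb5, Hoxb8, Hoxb13, Hoxc4, Hoxc5, Hoxc6, Hoxc9, Hoxc10, Hoxc13 and Hoxd9. The reverse path was taken by Hoxa11 and Hoxb4. Hoxd4 rose in both steps. Hoxa6, Hoxa9, Hoxb7 and Hoxd8 passed neither test. Among the 7 genes with 2 probes, both probes passed in the same direction for 2 genes from 0 to 4 h and for 3 genes from 4 to 24 h, and in opposite directions for 0. Only 1 of the probes passed for 3 genes from 0 to 4 h and for 1 gene from 4 to 24 h. For Hoxa10 in the first step (0.23, limma adjusted p = 0.000214) and Hoxd8 in the second (0.40, adjusted p = 0.00149) it was the second probe.

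The net difference between 24 h and 0 h in sham cells was smaller and split. Of the 30 genes 11 were higher and 9 lower at 24 h, against 18.1% and 18.6% of all tested probes, with a median of -0.05 against 0.02. Hoxd4 had gained most, to 0.72, 0.78, 0.73 and 0.78, a difference of 1.40 ± 0.0846 (SE), 2.65-fold, with adjusted p = 1.38e-10. Hoxc5 was higher by 1.14 (2.20-fold, adjusted p = 2.80e-05) and Hoxb5 by 0.94. Hoxb13 stayed lower by 0.94 (1.92-fold, adjusted p = 0.0093). Hoxc5 missed the test with normexp background correction (0.28, adjusted p = 0.105), and Hoxb13 with spike-in scaling (-0.25, adjusted p = 0.417) or without replicate 1 or 4 of all groups. By cluster, 5 of 10 Hoxa genes were lower and 1 higher, 5 of 9 Hoxb genes higher and 3 lower, and 3 of 7 Hoxc genes higher and 0 lower. With spike-in scaling the median of all tested probes moved to 0.71, and 23 Hox genes were called higher and 0 lower, with 17 of 30 below that median as before.

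The nsPEF-exposed cells went through time courses of the same kind. From E0 to E4, 4 of 30 genes rose and 20 fell, against 32.8% and 28.4% of all tested probes (median -0.48 against 0.08). From E4 to E24, 20 rose and 5 fell, against 28.4% and 28.3% (median 0.75 against -0.01). From E0 to E24, 11 were higher and 9 lower, against 24.1% and 18.3% (median 0.05 against 0.07). Under spike-in scaling these splits became 5 higher and 16 lower, 24 and 0, and 19 and 2, with the median of all tested probes at 0.17, 0.38 and 0.54. A fall followed by a rise was found for 15 genes, against 20.3% of all tested probes (7659), and 13 of the 15 had that path in sham cells too. The 15 included 2 genes with a step that rested on signal in the background. Hoxb13 was well above background on 0 of 4 E4 arrays and 1 of 4 E24 arrays, and Hoxd3 on 3 E0 arrays and 0 E4 arrays. No fold is given for the rise of Hoxb13 or the fall of Hoxd3. The genes called in both arms had the same direction in every case: 19 genes from 0 to 4 h, 24 from 4 to 24 h and 18 from 0 to 24 h.

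Hoxb13 fell by 4 h, from -4.04, -3.56, -3.63 and -4.11 in E0 to -6.88, -7.06, -6.59 and -6.74 in E4, with 0 of 4 arrays well above background, so it was at least 1.70-fold higher in E0 (adjusted p = 5.58e-09). Hoxc4 fell by 2.07, from 0.53, 0.43, 0.43 and 0.56 to -1.73, -1.62, -1.49 and -1.48. Hoxa4 read -3.95, -3.18, -4.28 and -4.19 in E0 and -5.21, -6.12, -4.74 and -4.98 in E4, where 0 arrays were well above background. It was at least 1.63-fold higher in E0, although that difference did not pass the test (adjusted p = 0.0589), and at least 2.01-fold higher in E24 than in E4 (adjusted p = 0.0246). Hoxd3, a gene of the neck vertebrae, was at least 1.59-fold higher in E24 than in E4 (adjusted p = 6.06e-05), with 0 of 4 E4 arrays well above background.

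**Figure D3:**
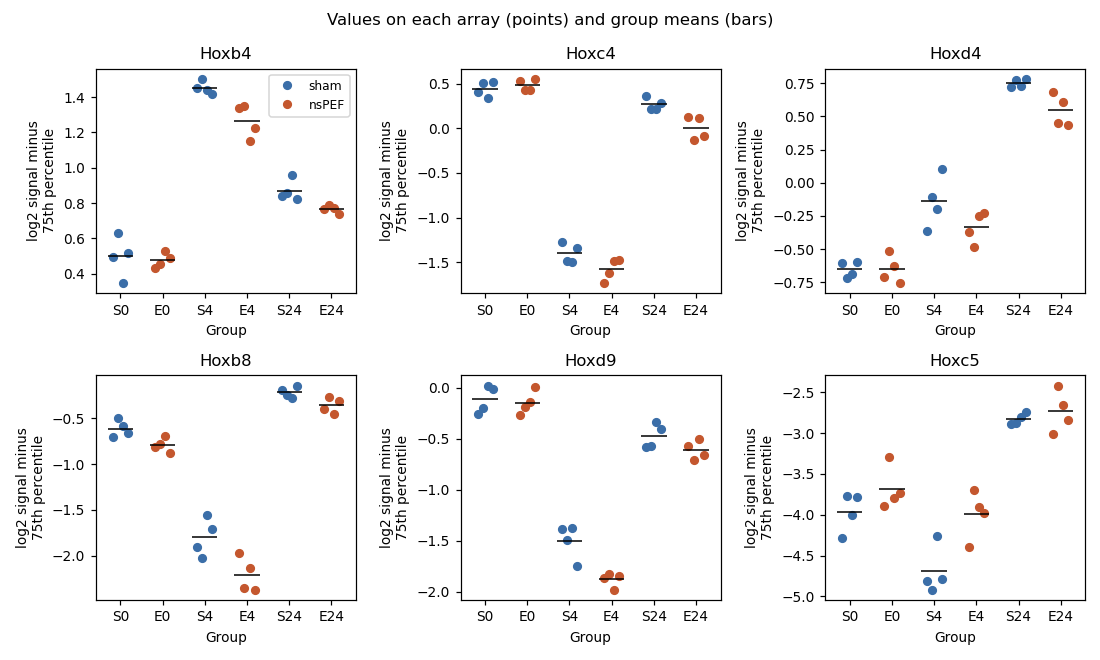
Normalized log2 signal on every array (points) and group means (bars) for the 3 detected paralog group 4 genes of the B, C and D clusters (top) and for Hoxb8, Hoxd9 and Hoxc5 (bottom), in the order S0, E0, S4, E4, S24, E24, each panel on its own axis. Hoxc4, Hoxb8 and Hoxd9 dip at 4 h, Hoxb4 peaks there and Hoxd4 climbs with time within the sham and within the nsPEF groups.

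Sham- and nsPEF-exposed cells were compared within each time point. At 0 h, 0 of the 30 Hox genes passed the test (limma, smallest adjusted p = 0.474), while 0.103% of all tested probes did. An unadjusted p under 0.05 was found for 2 of the 30 genes and for 3619 of all 37684 tested probes. The fitted differences ran from -0.99 (Hoxa4) to 0.31 (Hoxa6), with a median of -0.01 against -0.02 over all tested probes. Hoxa4 read -4.28 to -3.18 in E0 against -3.94 to -3.80 on 3 S0 arrays and -0.03 on the fourth.

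At 4 h, 5 of the 30 Hox genes were lower and 1 was higher in nsPEF-exposed than in sham cells, against 1.74% of all tested probes in each direction, and the other 24 did not pass the test. The difference was below 0 for 28 of 30 genes (13 of 30 with spike-in scaling), with a median of -0.17 against 0.01 over all tested probes. Without adjustment, 21 of the 30 genes had a p under 0.05, as did 8009 of all 37684 tested probes. Among the 24696 probes that every array had well above background, 2.29% were lower. Under spike-in scaling the median of all tested probes was 0.19 and 28 of 30 genes lay below that median, with 1 called higher and 0 lower, whereas quantile normalization gave 0 higher and 8 lower, values centred by place on the array and signal 0 and 4, and normexp background correction 0 and 2. A fit to the 8 arrays of the slide alone called 1 gene, and without S4 replicate 1, 2 or 3 the count was 2, 3 or 1, without E4 replicate 2, 3 or 4 it was 3, 2 or 3.

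Hoxb8 read -1.90, -2.03, -1.55 and -1.71 in S4 and -1.97, -2.35, -2.13 and -2.37 in E4, a difference of -0.41 ± 0.093 (SE, adjusted p = 0.0221). The 2 groups overlapped, and its second probe gave -0.14 (adjusted p = 0.615). Hoxd9 read -1.87, -1.83, -1.98 and -1.85 in E4, all below the 4 S4 arrays (-0.38, adjusted p = 0.0243). Hoxa5 read -2.26, -2.42, -2.41 and -2.30 in E4 (-0.30, adjusted p = 0.0248), and Hoxa7 read 1.98, 2.03, 2.04 and 2.10 (-0.28, adjusted p = 0.0230). Hoxc8, a gene of brachial motor neurons and ribs, read 0.71, 0.66, 0.61 and 0.79 in S4 and 0.40, 0.47, 0.50 and 0.55 in E4 (-0.22, adjusted p = 0.0475). In Hoxd9, Hoxa5, Hoxa7 and Hoxc8 the groups did not overlap. This also held for genes that did not pass the test, such as Hoxb4, Hoxd8 and Hoxb13 (0 arrays well above background in S4 and in E4). The share of all tested probes without overlap is not given, here or for the other comparisons. Without that share, whether non-overlap sets the Hox genes apart was not tested.

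Hoxc5 was the 1 Hox gene called higher at 4 h. Its E4 arrays read -4.39, -3.70, -3.90 and -3.97 against -4.82, -4.92, -4.26 and -4.78 in S4, a difference of 0.70 ± 0.171 (SE), 1.63-fold, with adjusted p = 0.0292. One pair of arrays overlapped, the lowest of E4 and the highest of S4. Hoxc5 was dim: the lowest signal well above background ran from -5.85 to -5.35 over the S4 arrays and from -4.78 to -4.29 over the E4 arrays. The undetected Hoxb1 also read higher in E4 than in S4, as given above. The part of such a background difference in the Hoxc5 result was not tested. When values were centred by place on the array and signal the difference was 0.34 (adjusted p = 0.287), and with quantile normalization it was 0.41 (adjusted p = 0.149), while over all alternatives and left-out samples its limma adjusted p ran from 0.00212 to 0.287. Hoxb13 gave -0.77 and Hoxd3 -0.66 at 4 h, both with 0 E4 arrays well above background, Hoxb13 also with 0 S4 arrays, and neither past the test (adjusted p = 0.110 and 0.197). Hoxa6, a thoracic gene, gave 0.59 (adjusted p = 0.259).

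At 24 h, 2 of 30 genes were lower in nsPEF-exposed cells and 0 higher, against 2.78% and 2.49% of all tested probes, and 3.7% lower among the probes that every array had well above background. Differences were below 0 for 17 of 30 genes, and the median was -0.05 against 0.01. Of the 30 genes 9 had an unadjusted p under 0.05, against 8374 of all 37684 tested probes. Hoxb9, a thoracic gene, read -0.73, -0.69, -0.62 and -0.77 in S24 and -0.93, -1.19, -1.22 and -1.28 in E24, a difference of -0.45 ± 0.114 (SE, adjusted p = 0.0277). Its second probe gave -0.29 (adjusted p = 0.450). Hoxc4 read 0.13, -0.13, 0.11 and -0.09 in E24 against 0.21 to 0.36 in S24 (-0.26 ± 0.0737, SE, adjusted p = 0.0427). The groups did not overlap in either gene. Hoxb13 was well above background on all 4 S24 arrays and on 1 of 4 E24 arrays (-5.33, -6.66, -4.69 and -5.90), and its difference of -0.65 did not pass the test (adjusted p = 0.157). With spike-in scaling, normexp background correction, values centred by place or the arrays of the slide alone, 0 Hox genes passed at 24 h. This was also so without S24 replicate 1, 2 or 3 or E24 replicate 2 or 4, and 1 gene passed without S0 replicate 1, E0 replicate 1 or S24 replicate 4.

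Averaged over the 3 time points, 6 Hox genes were lower and 1 higher in nsPEF-exposed cells, against 4.87% and 4.42% of all tested probes and 6.48% lower among those that every array had well above background. The averaged difference was below 0 for 26 of 30 genes, with a median of -0.09 against 0.00 (limma). The lower ones included Hoxb9 (-0.32, adjusted p = 0.00778), Hoxb8 (-0.24, 0.0108), Hoxd9 (-0.18, 0.0298), Hoxc13 (-0.12, 0.0347) and Hoxb4 (-0.10, 0.0430). The dim Hoxc5 was higher (0.36, adjusted p = 0.0291). Spike-in scaling left 2 genes higher and 0 lower, with 26 of 30 below the median of all tested probes as before, quantile normalization gave 0 higher and 9 lower, centring by place 0 and 3, and a 75th percentile over probes detected on all arrays 1 and 2. The count was 4 without E0 replicate 1, E0 replicate 2, E4 replicate 3, S24 replicate 3 or E24 replicate 2.

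Among these, Hoxb4 read 1.34, 1.35, 1.15 and 1.23 in E4 and 0.77, 0.79, 0.77 and 0.74 in E24, below all sham arrays of those times. Hoxc13 read -1.16, -1.23, -1.31 and -1.25 in E4, which overlapped with S4, and -0.25, -0.19, -0.20 and -0.29 in E24, which did not overlap with S24. Hoxb9 read -0.19, -0.51, -0.03 and -0.30 in E0 and -0.78, -0.68, -1.03 and -1.11 in E4, overlapping with sham at both times.

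**Figure D4:**
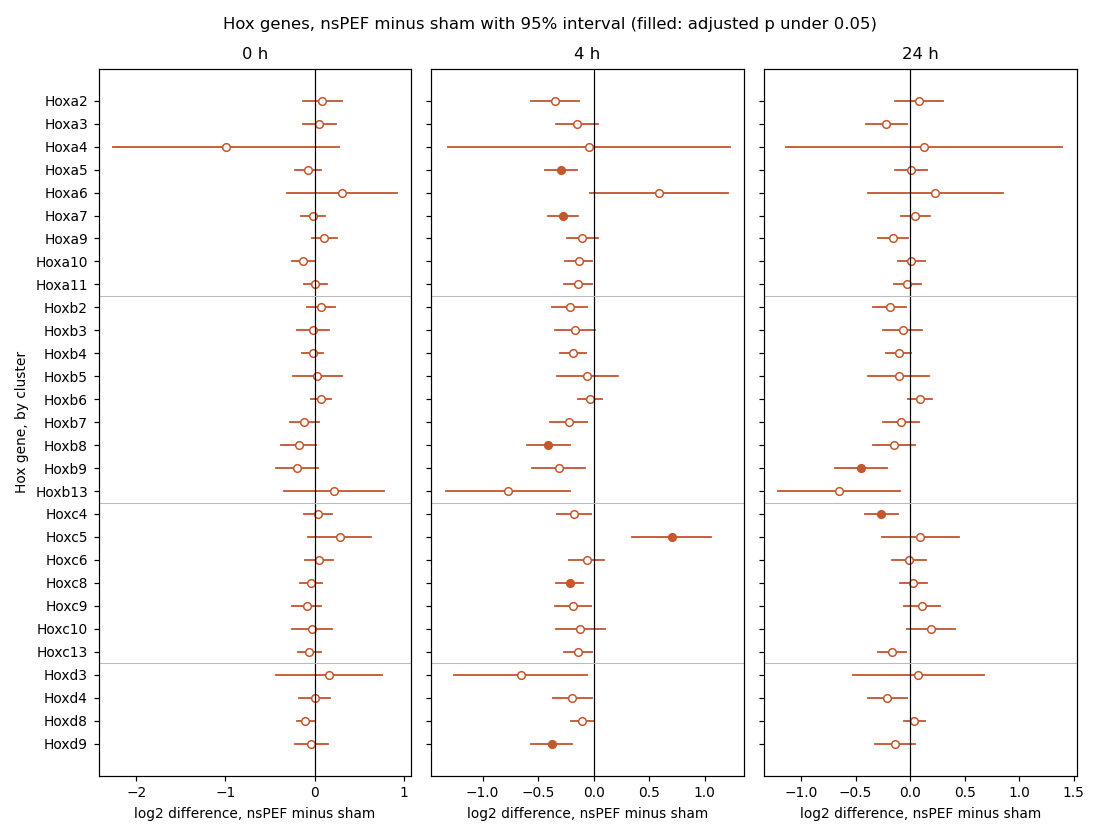
Difference in normalized log2 signal, nsPEF minus sham, for detected Hox genes of paralog groups 2 to 13 at 0, 4 and 24 h, with 95% intervals from the fit to all arrays, filled where the adjusted p was under 0.05. At 4 h, most points lie left of 0 (with spike-in scaling, 13 of the 30 detected genes did) and 6 are filled, with Hoxc5 on the right, and at 0 h none is filled.

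Whether the treatment difference itself varied with time was tested by the interaction. Of the 30 Hox genes 0 passed (limma F test, smallest adjusted p = 0.134, Hoxa7), against 0.361% of the probes tested. Counting unadjusted p under 0.05 gave 10 of the 30 genes, against 6170 of all 37684 tested probes. A two-way analysis of variance also called 0 Hox genes. The different counts at 0, 4 and 24 h are therefore not shown to differ between the times.

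The genes that work with or on the Hox clusters moved as follows, in sham cells from 0 to 4 h unless stated. Of all tested probes 29% rose and 30.3% fell, with a median of -0.01, and the counts of each list stand against these shares. Of the 11 TALE cofactors 2 rose and 6 fell (median -0.39). Pknox2 fell by 2.65 (adjusted p = 2.45e-17) and Tgif1, a TALE repressor, rose by 0.71. At 4 h Pknox2 was also lower in nsPEF-exposed than in sham cells, by 0.68 (adjusted p = 4.29e-05), as was Meis1 by 0.28, whereas Tgif1 was higher by 0.17. Of 15 tested genes within or beside the clusters 2 rose and 10 fell (median -0.49), led by the neighbours Calcoco1 (-2.09), Skap2 (-0.97) and Smug1 (0.76), a DNA glycosylase. At 24 h, Smug1 was higher by 0.42 and Lnpk by 0.34. A list of noncoding RNAs between Hox genes, made from RefSeq after results were seen, had 0 higher and 8 lower of 9, of which 6 are also among the 15 just counted. Its members included Mira (-0.95) and Haglr (-0.85), a transcript next to Hoxd1.

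Among the chromatin regulators of the clusters genes rose and fell in every list, against the same 29% and 30.3% of all tested probes. Of 12 PRC2 genes (the Polycomb complex that methylates histone H3) 4 rose and 3 fell, with Aebp2 up by 1.39 and the enzyme gene Ezh1 lower (-1.26), and at 24 h Aebp2 was higher by 0.41 and Eed by 0.31. Of 17 PRC1 genes (the complex that modifies histone H2A) 6 rose and 8 fell, with Phc2 at 1.26, and at 24 h Phc3 was at 0.59. Of 13 trithorax and histone demethylase genes 5 rose and 6 fell, with the demethylase Kdm6a at -1.01 and the methyltransferase Kmt2d at 0.78, and at 24 h Rbbp5 was at 0.33 and Men1 at -0.26. Between nsPEF-exposed and sham cells at 4 h, 1 of 12 PRC2 genes (Ezh2, -0.20), 1 of 17 PRC1 genes and 0 of 13 trithorax genes were lower, and 0 were higher, against 1.74% of all tested probes in each direction.

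Of 10 tested upstream regulators 3 rose and 6 fell, against 29% and 30.3% of all tested probes. Rarb, a retinoic acid receptor and itself a retinoic acid target, was well above background on all 4 S0 arrays and on 0 of 4 S4 arrays, so it was at least 7.91-fold higher at 0 h than at 4 h (adjusted p = 1.61e-09), and at least 7.75-fold higher at 24 h than at 4 h. In E4 it was well above background on 1 of 4 arrays, and no fold against S4 is given. Zbtb16, a repressor that acts on Hox genes in the limb, fell by 1.99. At 24 h Nr6a1, a nuclear receptor of trunk development, was at 0.60 and Gata6 at -0.54.

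Markers of testis cell types moved over the same times, and their part in the Hox results was not tested. In sham cells the summed Leydig marker signal, in multiples of the 75th percentile, ranged from 2.95 to 4.24 at 0 h, from 2.44 to 3.09 at 4 h and from 1.8 to 2.66 at 24 h. At 4 h Star was at 0.91 and Cyp17a1 at -0.46 relative to 0 h, and all 3 tested Leydig markers were lower at 24 h than at 0 h, against 18.6% of all tested probes. Summed Sertoli markers ranged from 1.11 to 1.16, from 0.697 to 0.748 and from 0.447 to 0.621, with 3 of 6 well above background on all 24 arrays. Of these 3, Sox9 was at -2.81 and Rhox5 at -1.0 by 24 h. Dmrt1 was at 0.12 and did not pass the test (limma, adjusted p = 0.248). Summed germ cell markers ranged from 0.226 to 0.399, from 0.197 to 0.404 and from 0.161 to 0.191, with 1 of 5 well above background on all arrays. Summed myoid, endothelial and macrophage markers ranged from 20 to 25.5, from 34 to 41.6 and from 19.7 to 21, with 4 of 8 on all arrays and the endothelial Cdh5 on 0. This sum was mainly the signal of Acta2, at a mean of 4.41 in S0 and 5.13 in S4. The single markers did not move together. From 0 to 4 h Cnn1 was at 1.33 and Csf1r at 1.64, but the endothelial Pecam1 was at -0.41 and Myh11 did not pass the test. Adgre1, Ptprc and Cdh5 fell short of the detection rule. In E4 the sums of the 4 lists ranged from 2.63 to 2.84, from 0.652 to 0.703, from 0.198 to 0.252 and from 36.7 to 40.1, against the S4 ranges given above.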

How the data were processed

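Gene expression was measured in TM3 cells on 24 one-colour Agilent arrays. Spike-in RNA was added, the RNA was labelled with Cy3, and the authors read the arrays with Agilent Feature Extraction 12.0. The deposited scanner files hold for each spot a processed signal intensity, background-subtracted and detrended by the software, with no scaling between arrays. The deposited table of the series holds log2 values that the authors made with GeneSpring by shifting each array to its 75th percentile and setting each probe's baseline to its median. It was used as an alternative. Of its columns, 0 belonged to no sample.

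Spots marked as not uniform or as outliers were left out, 0 spots were saturated, spots of a probe were averaged, and the 75th percentile of the 59305 non-control spots of each array was subtracted on the log2 scale. This percentile was taken over spots rather than probes after results had been seen, and the version over probes was kept as an added alternative. Probes well above background on at least 2 of 4 arrays of a group were tested (37684), as in the methods of the study. With limma 3.58.1 in R 4.3.3, 6 group means were fitted to all arrays, and Benjamini-Hochberg adjusted p-values under 0.05, over all tested probes, were called. Symbols came from RefSeq transcripts (61.1% of probes), a gene by its probe with the highest mean.

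Values on every array are given for the 3 Hox genes that changed most in each sham time contrast and for every Hox gene called between nsPEF and sham. From the other lists, the 2 genes with the largest changes are named. Some genes that this rule would name are not reported here. Members and lists were chosen with earlier results of these data known. Alternatives were other scalings, background correction, filters, probe rules, marked spots kept, the deposited log2 values, a replicate block, centring by place and signal, left-out samples, 1 slide alone and a two-way analysis of variance. The procedure was tested on simulated data. Precision is limited by the number of arrays and by how far a probe stood above background.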

Additional observations from a re-analysis of the deposited data

Results flagged for a closer look

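Over the 84 groups formed by the 14 genes given array by array and the 6 sample groups, 2 groups had 1 array far from the rest, and about 1 group in 20 would show this by chance. Hoxa4 read -0.0255 on S0 replicate 4, while the other S0 arrays lay between -3.94 and -3.80, so the gap made up 0.964 of the whole range. Hoxc8 read 0.84 on E24 replicate 1, while the other E24 arrays lay between 0.99 and 1.02, a gap of 0.858 of the range.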

How the results depend on the processing

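The count of detected genes stayed 30 with any 1 replicate left out. Under the 3 other detection rules it stayed within 1.5 times of 30. It was 27 when all 24 arrays were required, and Hoxa13, Hoxc11, Hoxc12 and Hoxd10 were added when 1 array was enough. The counts of called genes in the 6 time contrasts stayed within 1.5 times under all 13 alternatives and all left-out samples. Those counts take both directions together, and their split into higher and lower genes moved with spike-in scaling, as given above. The counts for nsPEF against sham moved. At 4 h (6 genes) 1 was called with spike-in scaling, 2 with normexp, 15 without a filter and 1 on the slide alone. At 24 h (2 genes) 0 were called with spike-in scaling, normexp, centring by place and the slide alone, 1 with the 75th percentile over detected probes or with the probes of a gene averaged, and 7 without a filter. Averaged over time (7 genes) the counts were 2 with spike-in scaling, 3 with the percentile over detected probes, 3 with centring by place, 17 without a filter and 13 in the deposited values. At 0 h (0 genes) 4 were called without a filter, and the interaction (0 genes) called 1 with spike-in scaling. The cause of these moves was not tested. The percentile over probes, chosen after seeing the data, left every count within 1.5 times.

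With samples left out, the counts ran from 20 to 22 (S4 against S0), 21 to 24 (S24 against S4), 15 to 20 (S24 against S0), 20 to 25 (E4 against E0), 23 to 26 (E24 against E4), 17 to 22 (E24 against E0), 0 to 0 (E0 against S0), 0 to 7 (E4 against S4), 0 to 3 (E24 against S24), 0 to 9 (averaged) and 0 to 0 (interaction). Of the 28 ways of leaving samples out, the call at 4 h was kept in 22 for Hoxb8 and Hoxa7, 21 for Hoxd9, 20 for Hoxa5, 18 for Hoxc5 and 3 for Hoxc8, and the call at 24 h in 18 for Hoxb9 and 16 for Hoxc4. Without all arrays of replicate 2 or 3 the count at 4 h was 0, and without those of replicate 1 or 4 it was 1. Deviations of same-numbered replicates were at most weakly correlated. The correlations ran from -0.041 to 0.0943, and 0 of 12 exceeded 0.1. In 7 of 12 cases the own number gave the best correlation, so a small shared part is not excluded. The paper states that the tests of each biological replicate, apart from adhesion, were done side by side on 1 cell suspension. The main fit held no replicate term. With the replicate block the 11 counts stayed within 1.5 times, at 25 (E4 against E0), 19 (E24 against E0) and 8 (averaged) in place of 24, 20 and 7, and equal in the others, 6 at 4 h and 2 at 24 h among them.

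Dim probes had wide errors. The SE of the 4 h time difference was 0.608 for Hoxa4 and 0.0545 for Hoxb4.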
